A study of Homo sapiens with 4 samples.

Results

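Haem synthesis and breakdown were followed through 9 genes in the human prostate cancer cell line 22Rv1 after treatment with WCE, a herbal extract. The genes were ALAS1, ALAD, UROD, PPOX and FECH, which make haem, and HMOX1, HMOX2, BLVRA and BLVRB, which break it down. They were chosen by symbol in the platform annotation, and together have 14 of the 47320 probes and are 9 of the 12136 genes tested. The study holds 4 Illumina bead arrays: 2 of cells given vehicle and 2 of cells given 10 µg/mL of WCE, all for 16 h. No genotype or agent other than these is given in the labels, and all 4 arrays are of the same cell line. The labels do not say whether the arrays of a group came from separate cultures, so the p-values cover the spread among these 4 arrays, part or all of which may be technical. Levels are log2 signals after background correction and quantile normalization. Differences are WCE minus vehicle on that log2 scale, with the standard error (SE) of limma's fit over all tested genes.

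Haem is an iron-holding ring used by cytochromes, peroxidases and oxygen carriers. Its synthesis starts in mitochondria, where ALAS1 joins glycine to succinyl-CoA in the rate-limiting step. It passes through the cytosol, where ALAD and UROD act, and ends in mitochondria, where PPOX makes protoporphyrin and FECH inserts iron. Haem oxygenases, the inducible HMOX1 and the constitutive HMOX2, open the ring to give biliverdin, carbon monoxide and iron, and the biliverdin reductases BLVRA and BLVRB reduce the product. Haem itself represses ALAS1, and HMOX1 is a textbook target of NRF2, the activator of the oxidative stress response, and of its haem-sensing repressor BACH1.

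The entry enzyme of synthesis and the inducible enzyme of breakdown were higher after WCE, and the 7 genes between and beside them did not pass the test. ALAS1 rose 2.08-fold and HMOX1 rose 3.36-fold. Thus 2 of 9 genes were called higher and 0 lower at limma's adjusted p of 0.05, where 1.83% of all tested genes were called, 1.15% higher and 0.676% lower. The median log2 difference was 0.12 over the 9 genes and 0.01 over all tested genes. The genes were chosen with earlier results of these arrays known, so this share is a description.

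For the first and the last enzyme of synthesis, ALAS1 and FECH, the reference promoter is shown to let the letters be set beside their different values. The windows run from 250 bases before to 50 after the annotated start, 5′ to 3′ on the gene's strand, from RefSeq (GRCh38.p14). The ALAS1 window is at chr3:52197833-52198132 on the plus strand and the FECH window at chr18:57586653-57586952 on the minus strand. Capitals mark the matches of the motifs searched.
ALAS1: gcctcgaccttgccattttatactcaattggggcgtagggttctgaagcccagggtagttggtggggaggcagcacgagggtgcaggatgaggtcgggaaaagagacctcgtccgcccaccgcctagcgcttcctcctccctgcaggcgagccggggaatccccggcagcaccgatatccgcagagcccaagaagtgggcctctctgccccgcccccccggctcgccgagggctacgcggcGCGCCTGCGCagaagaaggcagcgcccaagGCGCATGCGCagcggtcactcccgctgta
FECH: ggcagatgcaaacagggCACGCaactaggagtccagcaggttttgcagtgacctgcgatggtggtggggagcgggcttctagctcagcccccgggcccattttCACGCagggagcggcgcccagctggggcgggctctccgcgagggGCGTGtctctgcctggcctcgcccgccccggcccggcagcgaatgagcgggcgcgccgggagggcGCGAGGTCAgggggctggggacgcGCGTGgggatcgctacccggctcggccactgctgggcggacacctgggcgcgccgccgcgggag

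Both strands were searched for 4 motifs, with a match that reads the same on both strands counted once and overlaps between motifs allowed. They were GCGTG, the core bound by the aryl hydrocarbon receptor with its partner ARNT, TGACNNNGC, the core bound by NRF2 with small MAF proteins, CACGTG, the E-box, and a motif bound by NRF1 (nuclear respiratory factor 1), which is GCGCA and GCGC with 1 base of any kind between them. The ALAS1 window held 2 matches of the NRF1 motif and none of the other 3. The FECH window held 4 of GCGTG and 1 of TGACNNNGC. Windows were given for 8 of the 9 genes, 11 windows in all, and not for HMOX1. GCGTG stood in 7 of the 11, in the 5 genes ALAD, PPOX, FECH, BLVRA and BLVRB, and in 36.5% of the 35116 promoter windows of the table. The windows of ALAD overlap each other, as do those of PPOX, and each pair shares a match, so the 7 are not separate. GC content, up to 75% in the member windows, was not matched. Each of the other motifs stood in 1 of the 11: TGACNNNGC, held by 13.3% of all windows, in FECH, CACGTG, held by 7.26%, in HMOX2, and the NRF1 motif, held by 5.78%, in ALAS1. A match is a description of the letters and not a measured binding site.

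ALAS1 lies at chr3:52198083-52214327 (GRCh38.p14, as are all positions here) and has 3 probes. The exon or UTR that each probe matches is not known from the files used here. Its brightest probe, ILMN_2385647, had raw signals of 137.1 and 134.2 with vehicle and of 226.7 and 236.8 with WCE. The corresponding log2 levels were 6.41 and 6.39 with vehicle and 7.28 and 7.63 with WCE. Both WCE arrays were above both vehicle arrays, and the vehicle arrays differed by far less than the WCE arrays. The difference was 1.06 ± 0.18 (SE, n = 2 per group), with a 95% interval from 0.66 to 1.46 and an adjusted p of 0.0227 (limma). It ranked 67 from the top among the 12136 genes.

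A second ALAS1 probe, ILMN_1700047, gave 6.14 and 5.58 with vehicle and 6.66 and 6.62 with WCE. Again the groups did not overlap. When each kept probe was tested on its own, where 0.846% of 21996 probes passed, its difference was 0.78 ± 0.21 (SE) with an adjusted p of 0.13, and that of the brightest probe kept its call at 0.0428 (limma). The third probe, ILMN_1728309, was not detected on any array, with raw signals between 69 and 75.8, and was not tested. The mean of the 2 kept probes passed with a difference of 0.92 (adjusted p = 0.0295, limma).

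The ALAS1 call depended on single arrays. Without vehicle replicate 1, vehicle replicate 2 or WCE replicate 2 the adjusted p was 0.107, 0.0794 and 0.0608 (limma), with differences of 1.07, 1.05 and 0.88. Without WCE replicate 1 the difference was 1.24 and passed.

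**Figure D1:**
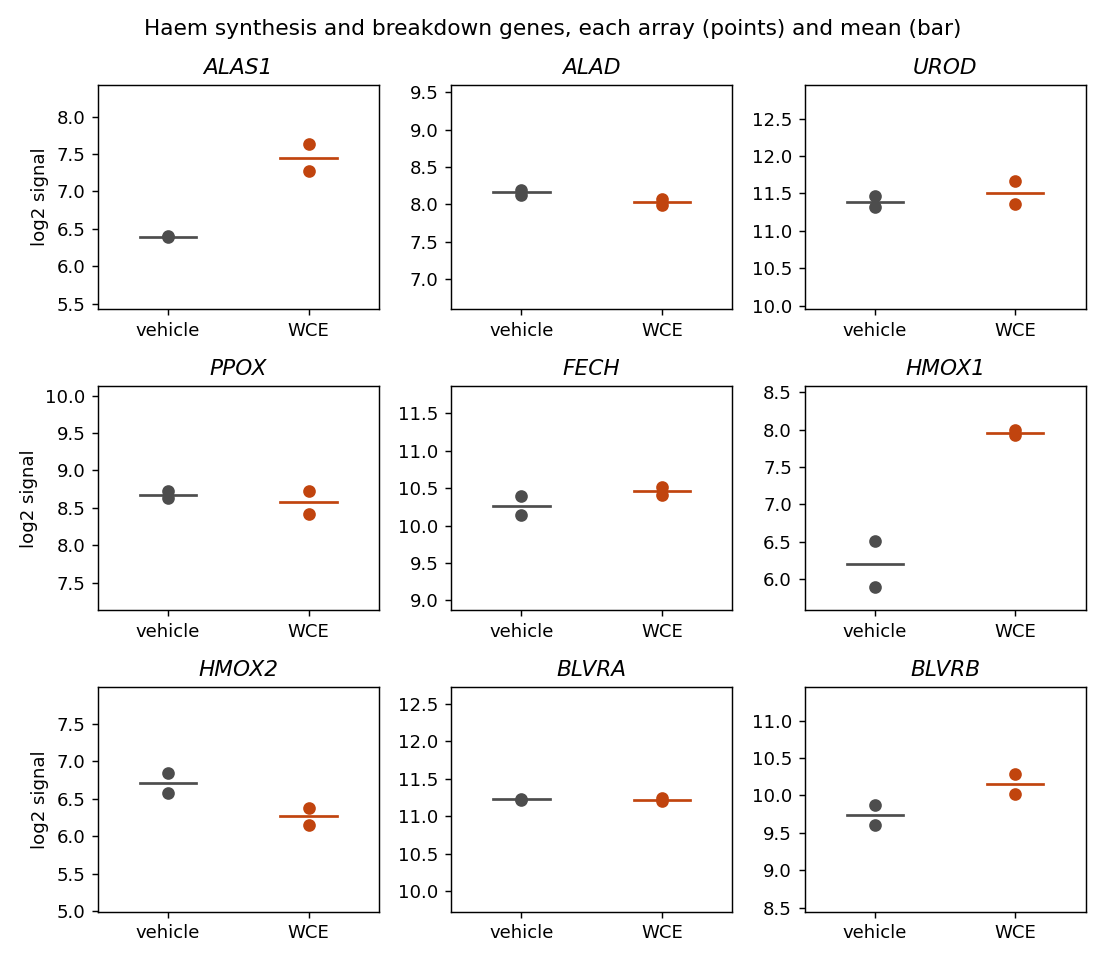
Log2 signal of each of the 9 genes (brightest probe) on the 2 vehicle arrays and the 2 WCE arrays. Points are arrays, bars are group means, and every vertical axis spans the same number of log2 units. ALAS1 and HMOX1 show wide gaps between groups, and UROD, PPOX and BLVRA overlap.

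ALAD, at chr9:113386312-113401284, joins 2 molecules of the ALAS1 product into the pyrrole porphobilinogen. Its brightest probe read 8.13 and 8.20 with vehicle and 7.99 and 8.07 with WCE. The WCE arrays were lower, with no overlap, as for 50.3% of all tested genes in either direction. The difference of -0.13 ± 0.16 (SE) did not pass, with an interval from -0.49 to 0.22. Another ALAD probe, ILMN_2404657, had 0.17 ± 0.20, so the 2 kept probes had opposite signs, and the third was not detected on any array. With the mean of its kept probes ALAD had 0.02.

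UROD, at chr1:45012254-45015575, trims the side chains of the first ring-shaped intermediate. It read 11.47 and 11.31 with vehicle and 11.36 and 11.66 with WCE, and the groups overlapped. Its difference was 0.12 ± 0.18 (SE), with an interval from -0.28 to 0.51. PPOX, at chr1:161165728-161178013, read 8.72 and 8.63 with vehicle and 8.42 and 8.73 with WCE, and again the groups overlapped. The PPOX difference of -0.10 ± 0.17 had an interval from -0.49 to 0.29. The signs of both depended on a single array, since UROD had -0.04 without WCE replicate 2 and PPOX 0.05 without WCE replicate 1.

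FECH, at chr18:57544377-57586702, completes haem. It read 10.14 and 10.39 with vehicle and 10.52 and 10.41 with WCE on its brightest probe, where the groups did not overlap but the lower WCE array stood close to the higher vehicle array. The difference of 0.20 ± 0.17 (SE) did not pass (adjusted p = 0.574, limma), and its interval ran from -0.18 to 0.58. Its second probe, ILMN_2364305, had 0.26 ± 0.16. Both probes were higher in both WCE arrays than in either vehicle array. On the brightest probes, the intervals of ALAD, UROD, PPOX and FECH all lay below the lower end of that of ALAS1, at 0.66, and all held 0. With each probe tested on its own, the second ALAS1 probe had an interval from 0.30 to 1.26. It overlapped the intervals of UROD, PPOX and FECH, but not that of the brightest ALAD probe. The difference between ALAS1 and these genes was not tested.

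HMOX1, at chr22:35381096-35394207, has 1 probe, ILMN_1800512. Its raw signals were 143.7 and 111 with vehicle and 325.7 and 291.1 with WCE, and it was detected on all 4 arrays. The log2 levels were 6.51 and 5.90 with vehicle and 7.92 and 7.99 with WCE. Both WCE arrays lay far above both vehicle arrays, and here the vehicle arrays were the ones that stood apart from each other. The difference of 1.75 ± 0.21 (SE, n = 2 per group) passed (adjusted p = 0.00443, limma), with an interval from 1.27 to 2.23, and ranked 24 from the top of the 12136 genes.

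Size, more than direction, depended on the processing for HMOX1. Without background correction its difference was 1.24, and with the authors' processed values it was 1.26. With 1 array left out it lay between 1.44 and 2.06 and passed each time. When no detection filter was applied, neither HMOX1 (adjusted p = 0.0589) nor ALAS1 (0.0812) passed over the 20046 genes then tested.

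HMOX2, at chr16:4474736-4510347, the constitutive isozyme, had the opposite sign. It read 6.58 and 6.85 with vehicle and 6.16 and 6.38 with WCE, so both WCE arrays were lower. Its difference of -0.44 ± 0.18 (SE) did not pass over all genes (adjusted p = 0.213, limma), and its interval ran from -0.84 to -0.05. Its unadjusted p was 0.032 (limma), and the share of all genes below such a p was not counted. The sign was negative in all 15 other settings tried, from -0.58 to -0.28, the last without background correction. HMOX2 was dim, with raw signals of 147.9 and 163.7 with vehicle and of 131.7 and 129.3 with WCE.

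Probes differ in brightness, so the distance between 2 probes has no meaning of its own, but its change can be read. Within an array, the log2 difference between the HMOX1 and HMOX2 probes moved from -0.07 and -0.95 with vehicle to 1.76 and 1.61 with WCE. The values did not overlap between groups, and the change was 2.19. An exact two-sided permutation test gave p = 0.33, the smallest that 2 arrays against 2 can give, with the same value after adjustment over the 2 isozyme pairs compared. The change lay between 1.52 and 2.63 in the other settings, and was 1.52 without background correction.

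BLVRA, at chr7:43758122-43807342, converts biliverdin to bilirubin. It read 11.22 and 11.23 with vehicle and 11.20 and 11.25 with WCE, and the vehicle values lay inside the WCE values. The difference was -0.00075 ± 0.156 (SE), with an interval from -0.35 to 0.35, and it turned to 0.12 with median scaling. BLVRB, at chr19:40447768-40465745, reduces flavins and other biliverdin isomers. It read 9.87 and 9.61 with vehicle and 10.02 and 10.28 with WCE, with both WCE arrays higher. Its difference of 0.41 ± 0.18 (SE) did not pass (adjusted p = 0.253, limma), and its interval ran from 0.01 to 0.82. As for HMOX2, its unadjusted p, 0.0463 (limma), has no counted share of all genes beside it. The within-array difference between the BLVRA and BLVRB probes was 1.35 and 1.62 with vehicle and 1.18 and 0.96 with WCE, a change of -0.41 without overlap (exact permutation p = 0.33, two-sided, also after adjustment over both pairs).

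**Figure D2:**
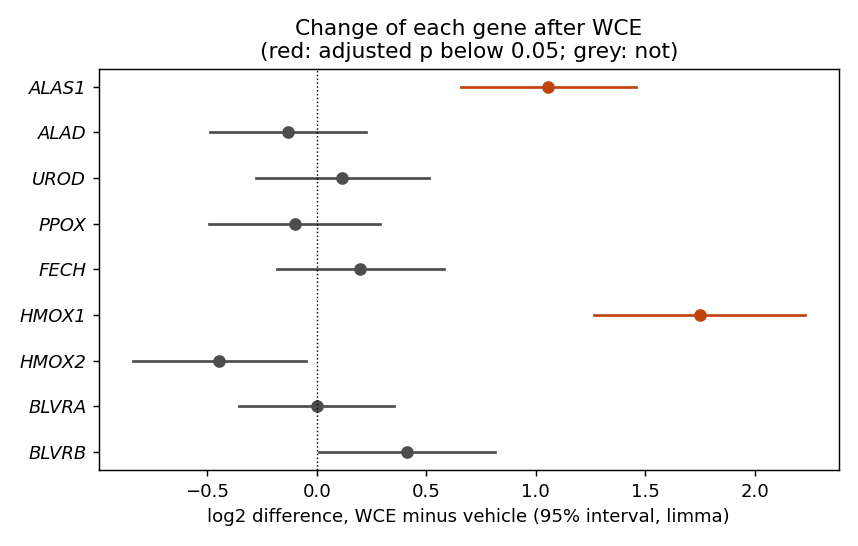
Log2 difference, WCE minus vehicle, of each gene with its 95% interval from limma, in pathway order. ALAS1 at 1.06 and HMOX1 at 1.75 passed the adjusted threshold. The HMOX2 interval, from -0.84 to -0.05, lay below 0 and the BLVRB interval, from 0.01 to 0.82, above 0, and neither gene passed.

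The remaining enzymes of synthesis in the pathway list included ALAS2, UROS and CPOX. UROS, which closes the ring, had 0.15 ± 0.16 (SE), and CPOX, the oxidase before PPOX, had -0.18 ± 0.16, and neither passed, nor had an unadjusted p below 0.05. ALAS2, the erythroid form of the first enzyme, has 3 probes and none was detected on any array. Of the 6 synthesis enzymes tested after the ALAS1 step, counting those of both lists, 0 passed. Over all tested genes 1.83% passed, so a count of 0 among so few says little about these enzymes.

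Genes that supply or move intermediates gave 0 calls by limma among 15 tested of 18, where 1.83% of all tested genes were called. Their median was 0.03. ABCB6, a porphyrin transporter, had the smallest p and read 10.51 and 10.55 with vehicle and 11.03 and 11.25 with WCE. Its difference of 0.61 ± 0.16 (SE) did not pass (adjusted p = 0.103, limma), though it passed in 5 of the other 15 settings. SLC25A37 (mitoferrin-1), which carries iron into mitochondria, had -0.52 ± 0.18, and SHMT2, which makes mitochondrial glycine, 0.44 ± 0.17. CLPX, the unfolding subunit of a mitochondrial protease, and the protease LONP1, which both act in the breakdown of ALAS1 protein, had 0.05 and 0.21.

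Among carriers and binders of haem and porphyrins, 1 of 8 tested rose, where 1.15% of all tested genes were called higher. It was ABCG2, an efflux pump that also exports protoporphyrin. It read 4.93 and 5.11 with vehicle, where 1 array detected it, and 7.62 and 7.08 with WCE. ABCG2 was kept through the WCE arrays alone, where it was high, so its place among the tested genes depended on its rise. Its difference was 2.33 ± 0.21 (SE; adjusted p = 0.000884, limma) and 1.37 without background correction. The haem and folate importer SLC46A1 had 0.50 ± 0.16 (SE; adjusted p = 0.145, limma), FLVCR2 0.25 and HEBP2 -0.30. FLVCR1, the haem exporter of the plasma membrane, had 0.07 ± 0.19.

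Regulators of ALAS1 or HMOX1 gave 0 calls among 13 tested of 16, where 1.83% of all tested genes were called. Their median was 0.22. BACH2 (0.33) and PPARGC1A were detected on no vehicle array and NRF1 on 1. They were kept through the WCE arrays alone, where their means were higher, so the filter itself lifts this median. The smallest p-values were those of AHR, at -0.50 ± 0.20 (SE; adjusted p = 0.222, limma), and of the co-activator PPARGC1A (adjusted p = 0.245, limma). PPARGC1A read 4.82 and 4.95 with vehicle, undetected on both arrays, and 5.29 and 5.23 with WCE. These levels are near the limit of detection, so no smallest size of its difference is given. The levels of AHR, the receptor for aromatic compounds, were 12.44 on both arrays with vehicle, and 12.22 and 11.67 with WCE on its brightest probe, and the mean of its kept probes had a difference of -0.10 (adjusted p = 0.826, limma). NFE2L2, which encodes NRF2, had 0.22 ± 0.16 and its inhibitor KEAP1 0.29 ± 0.18. BACH1 was not detected on any array. The clock repressors NR1D1 and NR1D2, which bind haem, had 0.18 and 0.26, and NRF1 had 0.57 ± 0.27 with overlapping groups, and 0.29 without background correction.

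Of the genes that act after or beside the oxygenases, 1 of 6 tested rose, where 1.15% of all tested genes were called higher. It was UGT1A1, which conjugates bilirubin, and it went from 5.93 and 5.86 to 8.79 and 8.65 (2.83 ± 0.16 SE, adjusted p = 5.71e-05, limma). Without background correction its difference was 2.08. It shares its last exons with the other UGT1A genes. ABCC2, which exports conjugated bilirubin, had 0.62 ± 0.16 (SE; adjusted p = 0.0881, limma) without overlap. POR, which supplies the oxygenases and the cytochromes P450 with electrons, had -0.06 ± 0.17. The iron exporter SLC40A1 and the ferritin chain FTL had -0.26 and -0.17.

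Over all tested genes 1.15% were called higher and 0.676% lower. Among proteins that hold haem or receive it, 4 of 21 tested rose and 1 fell. Those that rose were the cytochromes CYP1A1, CYP1A2 and CYP1B1, with differences of 6.61, 5.55 and 4.57, and the prostaglandin synthase PTGS2 with 1.76. CYP2C8 fell by 1.52. CYP1A2 was detected on 1 vehicle array and CYP2C8 on 1 WCE array. Each was kept only through the group where it was high, so its place among the tested genes depended on its change. These sizes depended on the background correction, without which CYP1A1, CYP1A2, CYP1B1 and PTGS2 had 5.72, 4.26, 3.81 and 1.02 and CYP2C8 had -0.80, and all 5 still passed. CYB5B, a mitochondrial cytochrome b5, had 0.66 ± 0.16 (SE; adjusted p = 0.0823, limma) and the sterol demethylase CYP51A1 0.46 ± 0.16. CYBA, detected on 1 vehicle array and kept through the WCE arrays alone, had 0.77 ± 0.20 (0.38 without background correction). Haem proteins of the respiratory chain did not pass: CYCS, CYC1, SDHC and SDHD had 0.19, -0.15, 0.20 and -0.01. The enzymes that modify or attach haem, COX10, COX15 and HCCS, had -0.09, 0.32 and 0.21.

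**Figure D3:**
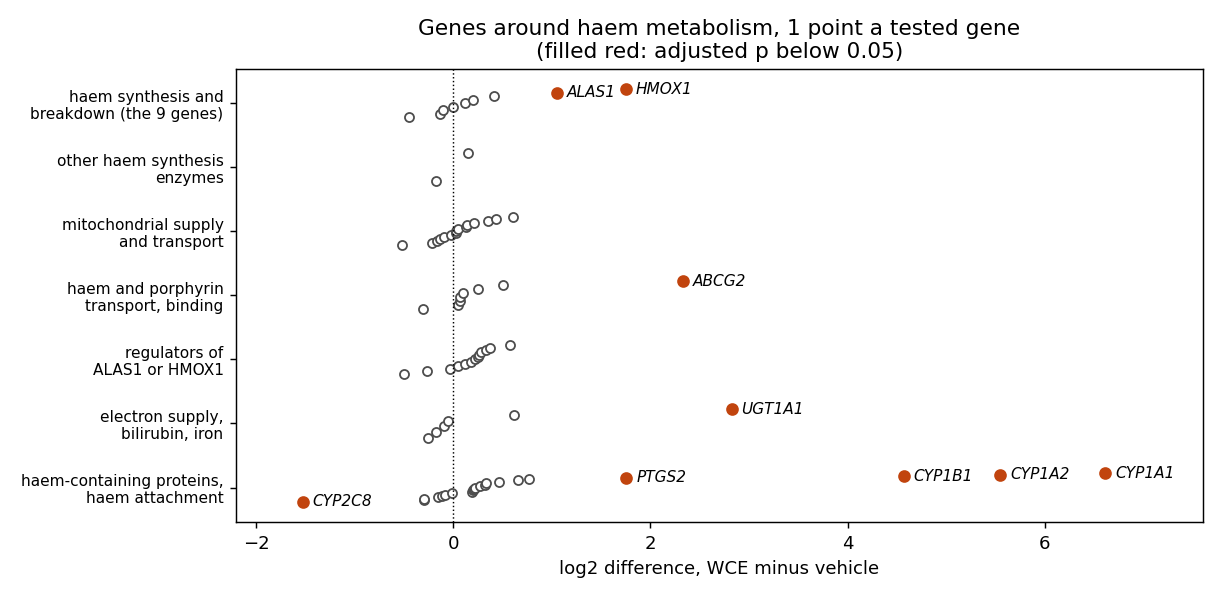
Log2 difference, WCE minus vehicle, of every tested gene of 7 lists around haem metabolism, with 1 point a gene and called genes named. No gene of the supply and regulator lists was called, against 1.83% of all tested genes, and their medians were 0.03 and 0.22. The regulator median includes BACH2, PPARGC1A and NRF1, kept through the WCE arrays alone. The called genes are ALAS1, HMOX1, ABCG2, UGT1A1, PTGS2, CYP2C8 and the 3 CYP1 cytochromes. Of these, ABCG2 and CYP1A2 were kept through the WCE arrays alone and CYP2C8 through the vehicle arrays alone.

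The genes with the 4-array pattern nearest to that of HMOX1, by Euclidean distance after centring each gene on its own mean, were A2M, SERHL2, CDH15, ETV5 and AKR1C2. Their distances lay between 0.0892 and 0.394 log2 units and their differences between 1.54 and 1.85. A2M, a protease inhibitor, also had vehicle arrays that stood apart, at 5.70 and 5.14, and WCE arrays close together, at 7.22 and 7.18. The genes nearest to ALAS1 were ADAP1, SPRY4, BCL3, CDKN1A and GADD45B, at distances between 0.0297 and 0.137. ADAP1 had vehicle arrays as close together as those of ALAS1, at 6.80 and 6.79, and a difference of 1.05. With 4 points and 12136 genes such likeness is a description.

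The share of probes detected was 45.2% to 48.9%, and median raw signals lay between 81.7 and 85.1. Of the 10 luminal prostate markers with a named probe, 9 were detected on all 4 arrays, and KLK3 on none. Of those 9, KLK2, KLK4 and TMPRSS2 fell, and 6 were not called. Among these 6, HOXB13, KRT8, KRT18 and EPCAM had negative differences and FOLH1 and CDH1 positive ones. The summed linear level of the 9 was 24980 and 24870 with vehicle and 18970 and 19660 with WCE. That sum leans on KLK4, the brightest, which read 13.51 and 13.53 with vehicle and 12.56 and 12.78 with WCE. Of 8 erythroid markers with a probe, HBB, HBD, SLC4A1 and ALAS2 were detected on no array. The other 4, HBA1, HBA2, EPOR and AHSP, were detected on all 4 arrays and tested, and none was called. HBA2, the brightest of them, read 9.67 and 9.47 with vehicle and 8.74 and 9.46 with WCE. Summed levels of the tested erythroid markers were 1262 and 1204 with vehicle and 825.3 and 1246 with WCE. None of the 4 endothelial markers was detected. Among leukocyte markers PTPRC, CD3E and CD163 were undetected, and the 2 tested, CD68 and LYZ, summed to 1306 and 1185 with vehicle and 1003 and 691.4 with WCE. The 3 tested fibroblast markers summed to 313.3 and 460.6 with vehicle and 562.8 and 444.7 with WCE. The part of these levels in the results above was not tested, and in such bulk RNA a change in cell number and in RNA per cell cannot be told apart.

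**Figure D4:**
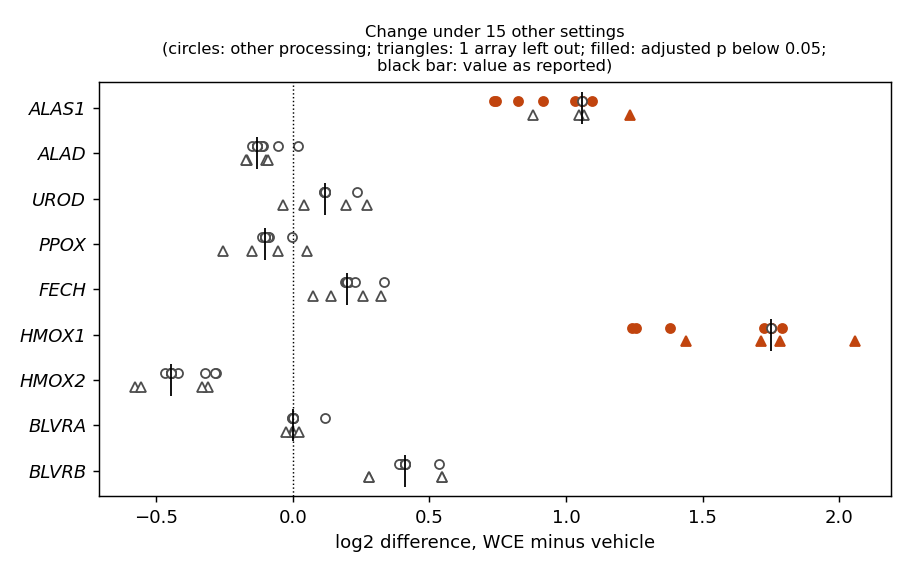
Log2 difference of each gene under the 15 other settings: circles are other processing, triangles leave 1 array out, filled marks passed an adjusted p of 0.05, and the black bar is the value reported above. HMOX1 ranged from 1.24 to 2.06 and ALAS1 from 0.74 to 1.24, and an open circle at their reported value, without a detection filter, lies over filled ones.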

How the data were processed

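Total RNA of 22Rv1 cells was labelled as biotinylated cRNA, per the labels' protocols. The deposited raw intensity of each probe is linear and, as its values show, neither background-subtracted nor normalized between arrays. Each intensity has its detection p-value, per the file headers. The authors also deposited processed log2 values, with no statement of how they were normalized. Their ranks equalled those of the raw signals on each array (Spearman's rho 1 across probes), and no value differed by more than 0.136 from the log2 raw signal after quantile normalization, so the scale is log2 and genes were not centred. The column medians were 6.40. Slide and scanner: not given in the sources used here.

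Intensities were corrected with normexp from the detection p-values (offset 16), quantile normalized and put on a log2 scale in limma 3.58.1 under R 4.3.3. Kept were 21996 probes with a detection p under 0.05 on each array of vehicle, of WCE or of both, and the brightest with 1 annotated symbol stood for its gene (12136 genes). The 2 groups were compared with limma's lmFit and eBayes, which had 7.1 prior and 2 residual degrees of freedom, with p-values adjusted by Benjamini-Hochberg over all genes. The number of arrays limits the precision. The fit was also run on simulated data in which every gene had the same spread. Spreads differ between genes on these arrays, so that run does not bear on the calls reported here. Motifs were searched in Python 3.11.15. Positions are those of RefSeq's gene table, and 8 of the 9 genes had a promoter window.

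The members, lists and tests were chosen with earlier results of these data known. Named were every member, every called gene of the other lists with up to 3 more of each by smallest p, and the 5 genes nearest to HMOX1 and to ALAS1. Further genes of the lists (CLPX, LONP1, FLVCR1, NFE2L2, KEAP1, NR1D1, NR1D2, POR, CYCS, CYC1, SDHC, SDHD, COX10, COX15 and HCCS) were named for their roles after their values were seen. Same-numbered arrays are not said to be paired.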

Additional observations from a re-analysis of the deposited data

How the results depend on the processing

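The 9 genes were tested under 15 other settings, 135 values in all, of which 125 kept their sign and their side of the threshold. HMOX1 and ALAS1 both passed in 11 settings and HMOX1 alone in 3. Signs turned for BLVRA with median scaling (0.118) and for ALAD with the mean of its probes (0.0206). They also turned with 1 array left out, where BLVRA ranged from -0.0239 to 0.0224, PPOX from -0.254 to 0.0522 and UROD from -0.0358 to 0.270. Without a detection filter 0 of the 9 passed. More genes were then tested, and limma's variance estimate drew on undetected genes too. The part of each in the loss was not tested. With 1 array left out, 1 to 2 of the 9 passed and 74 to 824 genes in all, with more lower than higher (524 and 300) without WCE replicate 1, and the lone array is then assumed to vary like the other group. The HMOX1 minus HMOX2 change was then between 1.75 and 2.63.

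Over all genes 222 passed, 140 higher and 82 lower. The count was 388 without background correction, 368 with an offset of 50, 402 with the authors' processed values, 132 with median scaling (102 higher and 30 lower), 52 without a filter and 457 with a trended robust variance. The causes were not tested. A replicate block gave 744 calls, 333 higher and 411 lower, ALAS1 and HMOX1 among them, with 1 residual degree of freedom. Same-numbered arrays deviated with a correlation of -0.159 across genes. A crossed replicate block, chosen after seeing the data, gave 167 calls. No slide is known, so none was fitted. Signals near background limit the sizes of dim genes, among them HMOX1, HMOX2 and ALAS1.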
